A study of Homo sapiens with 6 samples.

Results

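In human IMR90 lung fibroblasts, 506 genomic loci carried CTCF in control, ICM-treated and senescent cells and carried a peak of the cohesin subunit SMC1 in control cells but none in senescent cells. They were found by joining the CTCF peaks of the 3 conditions into 9720 loci on chromosomes 1 to 22 and X, wherever peaks overlapped by at least 1 bp. Of these loci, 4026 held a peak from all 3 CTCF lists and are called stable. The 506 loci, called control-only loci here, are the stable loci that overlapped a control SMC1 peak and no senescent SMC1 peak. They made up 16.3% (95% CI 15.0 to 17.6) of the 3107 stable loci with a control SMC1 peak, while 38.0% (37.2 to 38.7) of all 14883 control SMC1 peaks overlapped no senescent peak. The other stable loci comprised 2601 with SMC1 in control and senescent cells (shared loci), 274 with SMC1 in senescent but not control cells (senescent-only loci) and 645 with SMC1 in neither. The control-only loci were selected on measured values, namely presence in the CTCF and control SMC1 lists and absence from the senescent SMC1 list, so these shares describe the choice and support nothing.

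CTCF and SMC1 were profiled by CUT&Tag, a method that sends an antibody-guided transposase into lightly fixed nuclei and sequences the fragments it cuts near the bound protein. IMR90 is a line of human lung fibroblasts that divides a limited number of times in culture and then enters replicative senescence. Each of the 2 antibodies was applied to 1 library of control cells, 1 of cells treated with ICM and 1 of late-passage cells, so that the series holds 6 libraries and no replicates. All 6 sample titles carry the label I79, and the control titles say ctrl without naming a vehicle. ICM is inflachromene, a small molecule that binds HMGB proteins, and no genetic change was made in any group. The p number in the sample titles was 21 for the CTCF control, 16 for CTCF with ICM, 16 for the SMC1 control and for SMC1 with ICM, and 34 for both late-passage libraries. The titles with number 34 name no treatment, and these cells were taken as senescent from the design text of the series. Treatment lasted 6 days per the CTCF label, and the SMC1 label gives no duration. The senescent and control libraries therefore differ in passage as well as in state. The CTCF control and ICM libraries differ in passage as well as in treatment. In both comparisons these cannot be told apart. The CTCF and SMC1 control libraries differ in passage too, so a control locus with both proteins joins cells of different passage. The lists hold positions of 2 proteins and no transcript levels, so that fibroblast marker expression was not examined.

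CTCF is a zinc-finger protein that binds a long, oriented DNA motif. The ring-shaped cohesin complex, of which SMC1 is a core subunit, extrudes chromatin loops and pauses where it meets CTCF, so that the ends of loops and of topologically associating domains are usually sites where both proteins are found. Cohesin is also loaded and found at active promoters and enhancers that lack CTCF, and senescence of fibroblasts is known for extensive rearrangement of chromatin.

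The sequence under a control-only locus could be read where the promoter table of RefSeq (GRCh38.p14, 250 bases before to 50 after an annotated 5′ end) covered the highest point, or summit, of the control CTCF peak. This held for 108 control-only loci, and 37 of them (34.3%, 25.4 to 44.0) held a 12-position form of the CTCF motif on either strand, searched as CC, any 3 bases, AGG, any base and GGC. The following 8 sequences show this motif in capitals, in this or the reverse complementary form, beneath control-only loci that rank high for CTCF or SMC1 or that differ in their ICM peak, read 5′ to 3′ along the strand of the named gene.
MZT2A (chr2:131492398-131492450, - strand): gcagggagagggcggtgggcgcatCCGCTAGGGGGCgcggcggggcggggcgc
UBFD1 (chr16:23557480-23557539, + strand): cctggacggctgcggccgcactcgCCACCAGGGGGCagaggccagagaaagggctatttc
NCOA4 (chr10:46030686-46030745, - strand): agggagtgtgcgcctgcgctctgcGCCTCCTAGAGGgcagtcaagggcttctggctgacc
GNPTAB (chr12:101830960-101831016, - strand): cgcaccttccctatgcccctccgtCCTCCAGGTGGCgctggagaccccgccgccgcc
TRAF6 (chr11:36510316-36510375, - strand): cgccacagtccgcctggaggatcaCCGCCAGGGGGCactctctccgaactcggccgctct
NAE1 (chr16:66830989-66831048, - strand): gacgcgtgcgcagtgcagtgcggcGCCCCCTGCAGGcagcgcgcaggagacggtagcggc
REPS1 (chr6:138988346-138988405, - strand): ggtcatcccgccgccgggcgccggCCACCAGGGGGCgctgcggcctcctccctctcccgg
PPIF (chr10:79347369-79347428, + strand): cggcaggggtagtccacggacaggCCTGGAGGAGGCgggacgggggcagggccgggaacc

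All 8 stretches lie upstream of an annotated 5′ end of the named gene. Ranks in the following text are percentiles by total signal, the coverage summed over a peak, within the list the peak belongs to, where 100 is the highest. No common scale between the lists could be established, so that a rank is a place in a list and not an amount of protein on DNA. The locus at UBFD1, which encodes a ubiquitin-like domain protein and shares this stretch with the divergent gene EARS2, had control SMC1 rank 85.0 and ICM SMC1 rank 75.4. Its CTCF ranks were 76.2 in control, 94.3 with ICM and 88.4 in senescent cells, and the motif centre lay 24 bp from the control CTCF summit. At NCOA4, a receptor for the autophagy of ferritin, the control SMC1 rank was 78.4 and the ICM rank 59.5, with CTCF ranks of 35.8, 59.4 and 49.6 in the same order of conditions. GNPTAB, which tags lysosomal enzymes, had SMC1 ranks of 63.6 and 79.5 and CTCF ranks of 51.8, 65.1 and 87.7. The next 4 loci had a higher control rank for CTCF than for SMC1. TRAF6, a ubiquitin ligase of innate immune signalling, and RAG1 on the other strand share a stretch whose locus ranked 94.1, 97.0 and 96.8 for CTCF but 43.8 and 6.59 for control and ICM SMC1. NAE1, a subunit of the enzyme that activates the ubiquitin-like NEDD8, ranked 84.9, 88.5 and 88.0 for CTCF and 11.7 for control SMC1. REPS1, an endocytosis protein, ranked 53.0, 84.1 and 53.0 for CTCF and 40.8 for control SMC1. PPIF, the mitochondrial cyclophilin, held the motif within 2 bp of the CTCF summit, ranked 55.6, 67.0 and 39.9 for CTCF and had 1 of the weakest control SMC1 peaks, at rank 0.816. NAE1, REPS1, PPIF and MZT2A had no ICM SMC1 peak.

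The motif was more frequent beneath control-only than beneath shared loci in this window. The 37 of 108 control-only loci (34.3%) stand beside 113 of 532 shared loci (21.2%, 17.8 to 25.0), 26 of 79 stable loci without SMC1 (32.9%, 22.7 to 44.4) and 7 of 13 senescent-only loci (53.8%, 25.1 to 80.8). Over all 34961 promoter windows of the table, each of 300 bases, 4.63% held these letters. That share counts windows, while those of the classes count loci with any such window over the summit. The letters are rich in G and C, and shares were not matched for the content of these bases. Its median was 58.7% over all windows, 67.7% in windows over control-only summits and 66.7% over shared summits. For the shorter core AGGGGGC, which can lie inside the longer form, the shares were 45.4% of control-only loci, 29.1% of shared loci and 14.4% of all windows. The comparison moved with the rank of the control SMC1 peak. Among loci whose control SMC1 rank was under 50, the 12-position motif was in 42.6% (30.7 to 55.2) of 68 control-only and 32.8% (21.6 to 45.7) of 64 shared loci, and among those ranked 50 or more it was in 20.0% (9.05 to 35.6) of 40 and 19.7% (16.2 to 23.6) of 468. Within each of the bands the intervals overlapped. In control-only loci the motif centre lay a median of 36.5 bp from the control CTCF summit. In 26 of 37 (70.3%) it lay within 50 bp, while in shared loci the median was 53.5 bp and 46.0% lay within 50 bp. This too moved with rank. Under control SMC1 rank 50 the median was 39.5 bp in both classes. There 19 of 29 control-only (65.5%) and 12 of 21 shared loci (57.1%) lay within 50 bp. At rank 50 or more the medians were 31.0 bp in only 8 control-only loci and 57.0 bp in 92 shared loci. Control-only loci without an ICM SMC1 peak held the motif in 45.0% (29.3 to 61.5) of 40 loci and those with one in 27.9% (17.7 to 40.1) of 68. These intervals overlapped, and the shares were not matched for control SMC1 rank. Over all control-only loci its median was 25.9 without and 45.6 with an ICM peak.

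**Figure D1:**
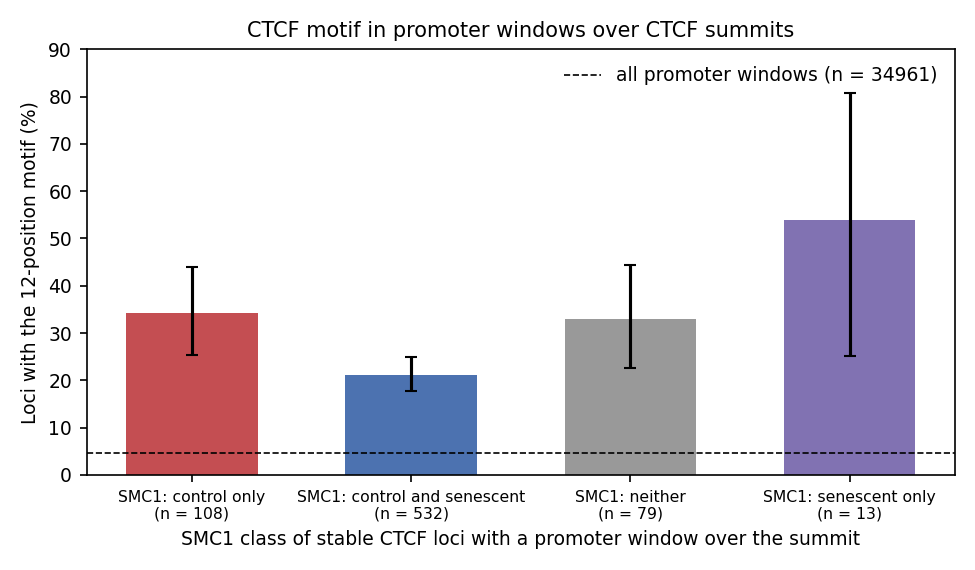
Share of stable CTCF loci (%) whose promoter window over the control CTCF summit holds the 12-position CTCF motif, by SMC1 class (x axis, with the number of loci). Bars are shares and lines exact 95% intervals over loci, and the dashed line is the share over all 34961 windows (4.63%). The dashed line counts windows and not loci, and was not matched for the content of G and C. The share was 34.3% in loci with SMC1 in control only and 21.2% in loci with SMC1 in control and senescent cells.

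The SMC1 peaks of the control-only loci came mainly from the lower and middle ranks of the control list. Their median control rank was 38.7 (quartiles 19.2 and 56.9), against 77.2 (53.3 and 91.6) in shared loci. The lowest 20% of the control list held 135 control-only loci (26.7%) and 5.88% of shared loci, while its highest 20% held 25 control-only loci (4.94%) and 45.9% of shared loci. Median total signal of the control SMC1 peak was 5040.5 in control-only and 9092.0 in shared loci, and median width was 904 and 1086.0 bp. The rule used the presence of these peaks, and presence in a list depends on rank, so the values are given without a test.

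The share of loci without a senescent SMC1 peak fell with control SMC1 rank. From the lowest to the highest rank band of 20 percentage points, 46.9%, 34.7%, 23.8%, 12.8% and 2.05% of stable CTCF loci with a control SMC1 peak had none in senescent cells. Counted per SMC1 peak in place of per locus, the shares over stable loci were 49.9%, 38.4%, 25.5%, 12.7% and 2.25%. For the 9098 control SMC1 peaks that overlapped no CTCF locus, the values were 68.8%, 60.1%, 43.9%, 29.9% and 10.1%, and 46.8% (45.8 to 47.8) over all bands. Absence of a senescent SMC1 peak is what the rule used, and a stable locus must also be listed in the senescent CTCF library, so these values are set side by side as a description only. Over all bands, 18.4% (17.2 to 19.8) of the 3388 control peaks over stable loci had no senescent partner, as against 32.0% (30.1 to 33.9) of 2397 peaks over CTCF loci that were not in all 3 lists. Counted per locus, the latter share was 30.6% (28.7 to 32.5) of 2304. The share also fell with control CTCF rank of stable loci with control SMC1, from 28.0% (23.9 to 32.3) in the lowest band of CTCF rank among stable loci to 7.94% (6.13 to 10.1) in the highest. Here a peak is absent when it did not enter the 1% of regions of highest signal that the authors kept in a library, which is not the same as absence of cohesin.

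**Figure D2:**
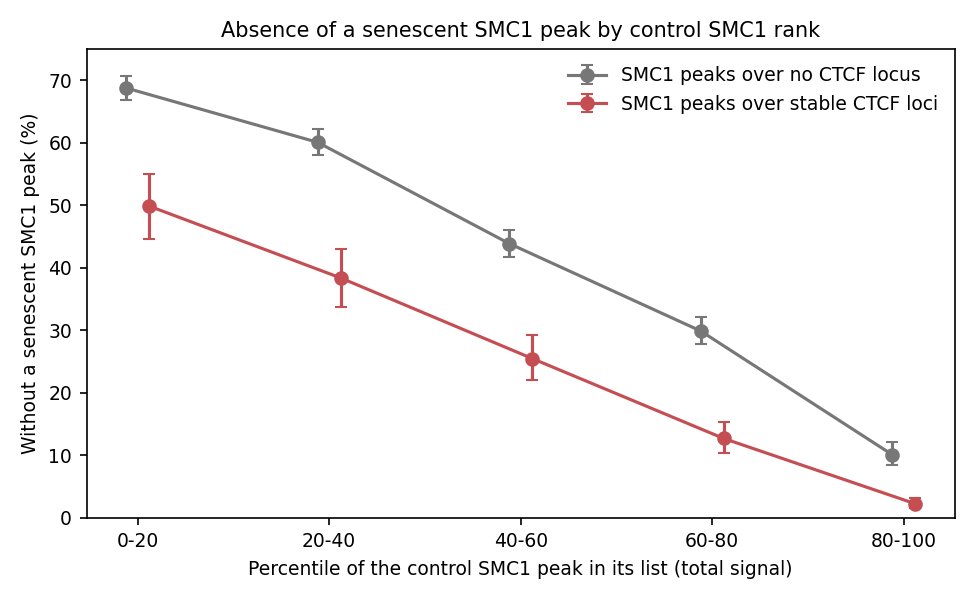
Share (%) of control SMC1 peaks without an overlapping senescent SMC1 peak (y axis) over bands of their rank in the control list (x axis, percentile by total signal), for peaks over stable CTCF loci (red) and over no CTCF locus (grey). Points are shares and lines exact 95% intervals over peaks. The share falls from 49.9% to 2.25% over stable CTCF loci and from 68.8% to 10.1% away from CTCF.

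Turnover in the opposite direction was present as well. Of the 2875 stable loci with a senescent SMC1 peak, 274 had no control one, while 28.8% (28.1 to 29.6) of all 12927 senescent SMC1 peaks overlapped no control peak. Taken out of the 919 stable loci without a control SMC1 peak, the same 274 were 29.8% (26.9 to 32.9). That share has another denominator and is not set against the 28.8%. There were thus 506 control-only and 274 senescent-only loci, in lists of 14883 control and 12927 senescent SMC1 peaks. This order depended on the lengths of the lists. With SMC1 lists of equal length the numbers were 417 and 360 by total signal but 409 and 423 by highest signal, and with both antibodies at equal length they were 282 and 285.

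The ICM library of SMC1 was not used to choose the loci. An ICM SMC1 peak overlapped 356 of the 506 control-only loci (70.4%, 66.2 to 74.3), and 150 had none. The same share was 94.5% (93.6 to 95.4) in shared loci, 56.9% in senescent-only loci and 24.8% in stable loci without SMC1 in control or senescent cells. Over all control SMC1 peaks it was 80.5% (79.9 to 81.2), over those without a senescent peak 64.5% (63.3 to 65.8), and over the latter away from any CTCF locus 62.8% (61.4 to 64.3). The share with ICM rose with control SMC1 rank, from 54.1% of 135 control-only loci in the lowest band through 61.7%, 77.1% and 90.8% to 24 of 25 (96.0%) in the highest. Shared loci of the same bands had 71.2%, 82.6%, 91.2%, 97.5% and 99.7%. The intervals of control-only and shared loci were apart in the 3 lowest bands, met at 95.9% in the next and overlapped in the highest. Where both were listed, the ICM SMC1 peak of control-only loci had a median rank of 53.3, against 83.3 in shared loci. The 356 loci with an ICM peak had a median control SMC1 rank of 45.6 and the 150 without one of 25.9.

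SMC1 lay close to CTCF at these loci, as it did at shared loci. The rule required a control SMC1 peak that overlaps the joined CTCF locus, whose median width was 2076.0 bp. Closeness is thus in part given by the choice, and the distances are a description. The control SMC1 summit was a median of 46.5 bp from the control CTCF summit, and at 355 loci (70.2%, 66.0 to 74.1) it lay within 100 bp. In shared loci the median was 62.0 bp and 63.6% (61.7 to 65.5) lay within 100 bp. With ICM the control-only loci had a median of 48.0 bp and 71.9% (66.9 to 76.5) within 100 bp. The control SMC1 peak directly overlapped the strongest senescent CTCF peak of the locus at 494 of the 506 loci (97.6%), and at 12 it met the joined locus elsewhere. The locus at JUND described below is among these 12.

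CTCF at control-only loci was of middle rank in each list. Median CTCF ranks were 46.8 in control, 61.3 with ICM and 68.9 in senescent cells, against 64.3, 75.3 and 79.6 in shared loci. The quartiles of the control-only loci were 25.4 and 70.2 in control and 47.5 and 81.1 in senescent cells. Median total CTCF signal was 22043.5, 37790.0 and 14098.5 in the units of each list. Since the senescent CTCF list holds 8577 peaks and the control list 4673, ranks were also taken among the 4026 stable loci alone, which are the same set in every condition. On that scale the median shift from control to senescent cells was -0.199 percentile points in control-only loci, with 252 of 506 (49.8%) moving up, and -0.447 in shared loci, with 48.8% up. Senescent-only loci moved by 13.7 points. The medians of control-only and shared loci were thus both near 0 before the loci were split by place.

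Of the 506 control-only loci, 214 (42.3%, 37.9 to 46.7) had the control CTCF summit within 1 kb of an annotated 5′ end and are called promoter loci, 166 (32.8%, 28.7 to 37.1) lay elsewhere inside a coding gene, and 126 (24.9%, 21.2 to 28.9) lay between coding genes. Shared loci had 43.8%, 27.0% and 29.2%, and senescent-only loci 15.3%, 38.7% and 46.0%. For comparison, 44.5% (43.7 to 45.4) of all control SMC1 peaks had their summit within 1 kb of a 5′ end. The promoter intervals of control-only and shared loci overlapped, and both lay above that of senescent-only loci. Among stable loci with control SMC1, 15.8% (13.9 to 17.9) of those at promoters, 19.1% (16.6 to 21.9) of those in gene bodies and 14.2% of the 886 between genes were control-only. Promoter loci carried stronger SMC1 peaks in general, with a median control rank of 80.9 as against 61.3 in gene bodies and 63.3 between genes. Within the lowest band of control SMC1 rank, 55.2% (44.1 to 65.9) of promoter loci, 52.0% (41.8 to 62.1) of gene-body loci and 34.7% (25.5 to 44.8) of loci between genes had no senescent peak, and in the middle band the shares were 33.9%, 22.5% and 15.8%. An ICM SMC1 peak was found at 65.4% (58.6 to 71.8) of control-only promoter loci, 72.9% (65.5 to 79.5) of those in gene bodies and 75.4% (66.9 to 82.6) of those between genes. Promoters with 2 coding genes on opposite strands made up 16 control-only loci (3.16%, 1.82 to 5.08) and 5.31% (4.48 to 6.24) of shared loci.

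**Figure D3:**
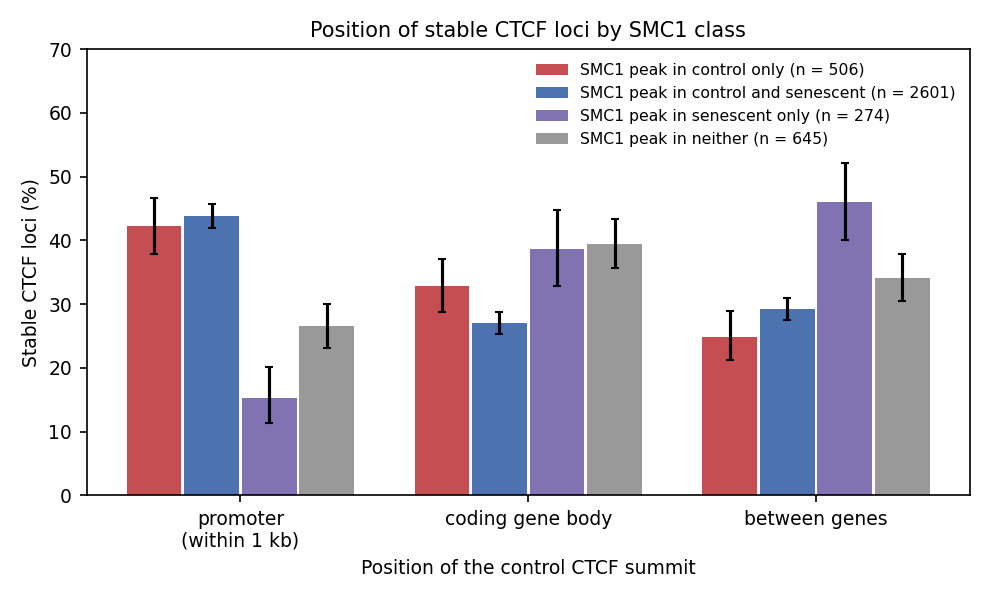
Share (%) of stable CTCF loci with the control CTCF summit within 1 kb of a 5′ end, elsewhere in a coding gene, or between coding genes (x axis), for the 4 SMC1 classes (colours, number of loci in the key). Bars are shares and lines exact 95% intervals over loci. At promoters lie 42.3% of control-only, 43.8% of shared and 15.3% of senescent-only loci.

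CTCF ranks among stable loci moved in opposite directions at promoters and elsewhere. These ranks have the same sum in every condition, so an average fall at promoters goes with an average rise elsewhere by construction. A rise in rank is therefore not read as more CTCF. At the 214 control-only promoter loci the median shift from control to senescent cells was -10.5 points (quartiles -28.5 and 1.61), and 61 (28.5%, 22.6 to 35.1) moved up. In gene bodies it was 8.87 points, with 112 of 166 (67.5%, 59.8 to 74.5) moving up, and between genes 6.20 points, with 62.7% (53.6 to 71.1) up. Shared loci had medians of -8.23, 3.48 and 6.57 points, with the same signs, so this split by place was not particular to control-only loci. Senescent-only loci had medians of 3.41, 17.3 and 18.4 points. The 25 control-only loci in the highest band of control SMC1 rank had a median shift of -28.0 points, with 20 of 25 (80.0%, 59.3 to 93.2) moving down and 16 (64.0%) at promoters. The 1193 shared loci of that band had a median of -4.52 points and 62.1% (59.3 to 64.9) moving down. Ranked by highest signal in place of total signal, the median of the 25 was -11.6 points and 18 moved down, while the shared loci of that band had -5.07 points and 753 of 1193 moving down, so the contrast was smaller on that scale.

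**Figure D4:**
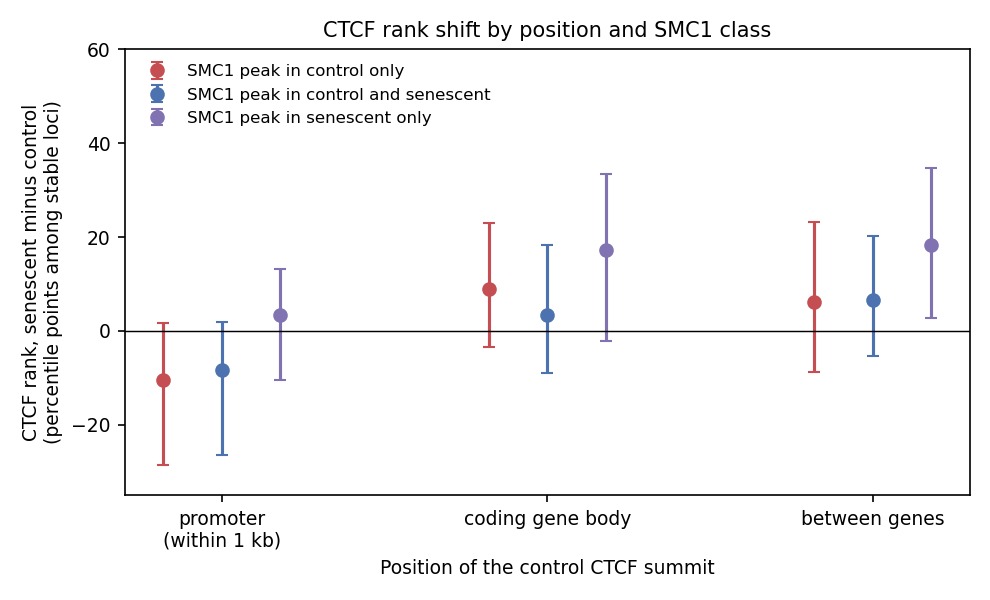
Change in CTCF rank from control to senescent cells (y axis, percentile points among the 4026 stable loci) by position of the control CTCF summit (x axis) and SMC1 class (colours). Points are medians and lines run from the lower to the upper quartile over loci. At promoters the median was -10.5 in control-only loci and -8.23 in shared loci, and it was above 0 in gene bodies and between genes. Ranks within a fixed set balance, so a fall at some loci goes with a rise at others.

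The 6 control-only loci with the highest control SMC1 rank lay at or near CEBPD, JUND, LINC01465, HIBCH, LOX and HNRNPA0. With CTCF lists of equal length, JUND kept its class and CEBPD, LINC01465, HIBCH, LOX and HNRNPA0 did not. The locus at CEBPD (chr8:47736991-47739412), which encodes the transcription factor C/EBP delta, had control SMC1 rank 95.9 and total signal 17794, and with ICM rank 82.2 and total signal 6598. Its CTCF ranks were 36.7 in control, 71.3 with ICM and 9.41 in senescent cells. A senescent SMC1 peak lay 1477 bp away, so that SMC1 was listed beside the locus and not in it. The locus near JUND (chr19:18276984-18283212), an AP-1 subunit, had SMC1 ranks of 95.6 in control and 93.8 with ICM and CTCF ranks of 66.7, 88.7 and 46.4, and the nearest senescent SMC1 peak was 1279 bp away. Its control SMC1 summit lay 2110 bp from the control CTCF summit, and the SMC1 peak did not touch the strongest senescent CTCF peak. Both loci show that a locus of joined whole peaks can meet the rule with SMC1 close by in senescent cells.

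At 4 further loci of high control SMC1 rank the nearest senescent peak lay farther away. The promoter of LINC01465 (chr12:62602058-62604080), a long non-coding RNA, had SMC1 ranks of 93.4 and 88.3 in control and ICM cells and CTCF ranks of 55.7, 65.2 and 28.9, with both summits at the same base and the nearest senescent SMC1 peak 261881 bp away. The promoter of HIBCH (chr2:190318982-190320499), a mitochondrial enzyme of valine breakdown, had SMC1 ranks of 92.1 and 87.4 and CTCF ranks of 34.3, 55.0 and 40.7, with 517649 bp to the nearest senescent peak. LOX (chr5:122075874-122078752), the lysyl oxidase that crosslinks collagen and elastin, had control SMC1 rank 92.0 and no ICM peak, CTCF ranks of 43.9, 77.5 and 26.4, and 84709 bp to the nearest senescent SMC1 peak. It was the 1 locus of the highest band without ICM SMC1, and its control SMC1 summit lay 1457 bp from the control CTCF summit. HNRNPA0 (chr5:137751837-137755518), an RNA-binding protein, had SMC1 ranks of 89.8 and 81.8, and its CTCF rank went from 64.9 in control and 69.4 with ICM to 7.01 in senescent cells, with 15493 bp to the nearest senescent SMC1 peak. PPA2 (chr4:105472765-105474654), the mitochondrial pyrophosphatase, had SMC1 ranks of 87.3 and 81.7 and CTCF ranks of 84.0, 90.8 and 87.8, and ADISSP (chr20:3767181-3769236), a secreted adipose signalling protein, had 87.1 and 41.2 with 38.7, 43.3 and 43.3. These ranks stem from lists of different length and no direction of CTCF change is read from them.

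**Figure D5:**
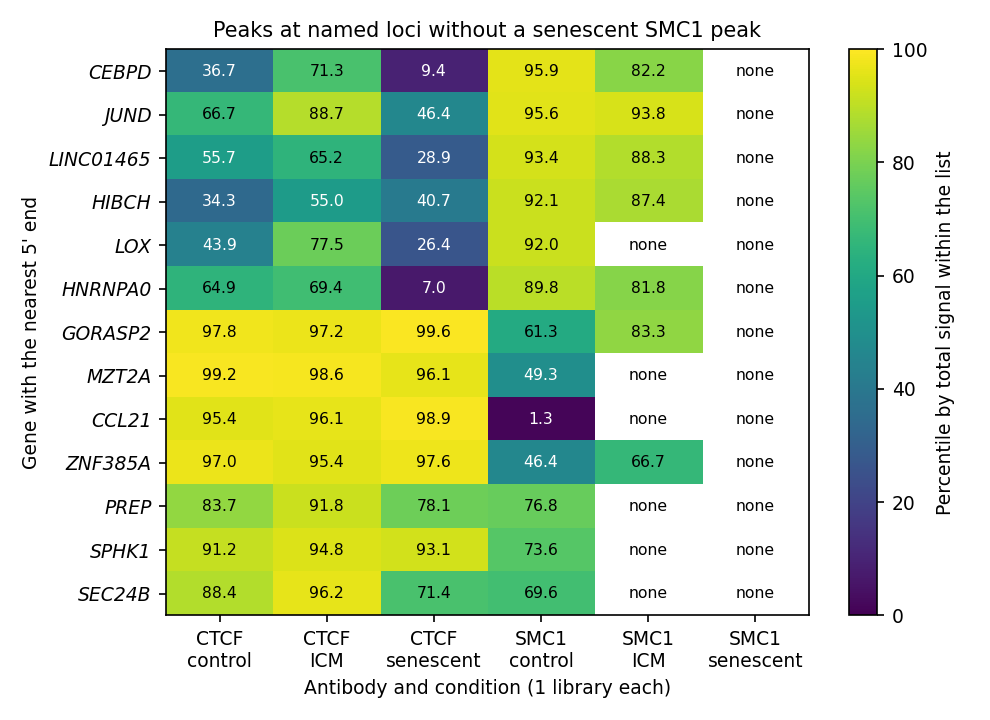
Percentile by total signal within each list (colour and number, 1 library per column) at 13 control-only loci, named by the gene with the nearest 5′ end. White cells mark no overlapping peak, which by the rule holds for every locus in the senescent SMC1 column. CEBPD to HNRNPA0 have the strongest control SMC1 peaks, GORASP2 to ZNF385A the highest mean CTCF rank, and PREP to SEC24B, with LOX, the strongest control SMC1 without an ICM peak.

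The 4 control-only loci of highest mean CTCF rank had control SMC1 ranks between 1.28 and 61.3. GORASP2 (chr2:170928181-170930854), a Golgi stacking protein, had CTCF ranks of 97.8, 97.2 and 99.6, a control SMC1 rank of 61.3 and an ICM rank of 83.3, and the SMC1 and CTCF summits of control cells were 1 bp apart. MZT2A (chr2:131490761-131494031), a γ-tubulin ring component whose motif is printed above, had CTCF total signals of 132151, 156500 and 32870 and ranks of 99.2, 98.6 and 96.1, with a control SMC1 rank of 49.3. A site inside PHF24, nearest to the 5′ end of the chemokine gene CCL21 (chr9:34700571-34702803), ranked 95.4, 96.1 and 98.9 for CTCF and 1.28 for control SMC1, and had no ICM SMC1 peak. Its control SMC1 summit lay 864 bp from the control CTCF summit. ZNF385A (chr12:54378004-54381444), a zinc-finger protein, ranked 97.0, 95.4 and 97.6 for CTCF, 46.4 for control SMC1 and 66.7 for ICM SMC1. The nearest senescent SMC1 peak lay 42281, 178212, 34123 and 7184 bp from these 4 loci.

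Besides LOX, the highest control SMC1 ranks without an ICM peak were at PREP, SPHK1 and SEC24B. PREP (chr6:105402228-105404346), a prolyl endopeptidase, had control SMC1 rank 76.8 and CTCF ranks of 83.7, 91.8 and 78.1. SPHK1 (chr17:76382592-76387858), the kinase that makes sphingosine 1-phosphate, had 73.6 with 91.2, 94.8 and 93.1. There the control SMC1 summit lay 991 bp from the control CTCF summit. SEC24B (chr4:109432341-109435260), a coat protein of transport from the endoplasmic reticulum, had 69.6 with 88.4, 96.2 and 71.4. At these 3 promoters SMC1 was listed in control cells alone while CTCF ranked 71.4 or higher in every list.

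At the edge of the rule, the control-only loci nearest to a senescent SMC1 peak were at ARID2, CAPSL and VAMP2, with gaps of 199, 245 and 408 bp. The shared loci of smallest overlap lay near LINC01989 and LEUTX and at NMT2, where a senescent SMC1 peak overlapped 350, 368 and 397 bp. These were the full widths of narrow senescent SMC1 peaks that lay wholly inside their loci, and not partial contacts. ARID2 (chr12:45728312-45730388), a subunit of a chromatin remodeller, had SMC1 ranks of 71.1 and 82.4 in control and ICM cells. NMT2 (chr10:15167376-15168748), a myristoyltransferase, had 69.6 and 18.1. Few control-only loci lay as close to a senescent SMC1 peak as ARID2, CAPSL and VAMP2. The median gap to the nearest senescent SMC1 peak was 29740.0 bp, and it was at most 1 kb at 11 loci (2.17%), 5 kb at 58 (11.5%), 10 kb at 109 (21.5%) and 100 kb at 401 (79.2%).

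Control-only loci were spread over the genome among shared loci. On 22 of 23 chromosomes at least 1 was found. The nearest shared locus lay a median of 151 kb away, and within 100 kb at 201 loci (39.7%). The nearest other control-only locus lay a median of 815 kb away, and within 100 kb at 14.1%. From shared loci the nearest control-only locus was a median of 748 kb away, and within 100 kb at 13.8%. Shared loci outnumber control-only loci (2601 and 506), so the shorter distance to shared loci is not read as a preference. Following the stable loci with control SMC1 along each chromosome, 324 control-only loci stood alone between shared loci, 69 runs held 2, 12 held 3 and 2 held 4. Among the 17 chromosomes with 100 or more stable loci carrying control SMC1, the control-only share was highest on chromosome 7 (26.8%, 18.9 to 36.0), 15 (25.2%, 17.6 to 34.2) and 9 (22.7%, 16.2 to 30.2) and lowest on chromosome 11 (8.90%, 5.59 to 13.3) and 22 (11.3%, 5.99 to 18.9). Of all control SMC1 peaks on these chromosomes, 44.3%, 41.2%, 37.5%, 32.5% and 27.0% had no senescent peak. Median control SMC1 ranks at their stable loci were 72.8, 59.6, 63.0, 75.9 and 69.1. The order is therefore not read as a trait of control-only loci.

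The window of 1 Mb with most control-only loci, 1 of 2 with that number, held 6 of them among 21 stable loci (10 shared) at chr12:48794583-49778773. They lay near ADCY6, an adenylyl cyclase, at DDN-AS1, at PRKAG1, a subunit of the kinase AMPK, in TUBA1C, an α-tubulin gene, at DNAJC22 and near the pseudogene LSM6P2. Their control SMC1 ranks were 42.5, 29.7, 40.3, 14.1, 40.2 and 5.22 in that order. ICM SMC1 was listed at 4 of them, with ranks of 48.4 at ADCY6, 51.4 at DDN-AS1, 27.6 at TUBA1C and 15.8 at LSM6P2, and was not listed at PRKAG1 and DNAJC22. Their CTCF ranks in senescent cells were 68.5, 94.4, 33.7, 78.2, 72.1 and 68.9, so that PRKAG1 alone ranked under 50.

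Genes known for senescence and for fibroblast identity were scored by whether a control-only locus met the gene or its surroundings of 10 kb on both sides. Of all 19974 protein-coding genes, 652 (3.26%) met one and 3254 (16.3%) met a shared locus. None of the 18 genes of cell-cycle arrest, of the 10 HMG box genes, of the 28 lamin and heterochromatin genes, of the 53 clustered protocadherins or of the 24 imprinted genes found met a control-only locus, although shared loci met 5, 1, 5, 22 and 6 of them. With a share of 3.26% over all coding genes, few or no hits are likely in lists this short, so no avoidance is read from this. Among 18 genes of the CTCF and cohesin machinery the promoter of PDS5A, which regulates cohesin release, was met. This locus had CTCF ranks of 93.3, 96.5 and 85.9 and SMC1 ranks of 40.0 in control and 52.3 with ICM. Its control SMC1 summit lay 1271 bp from the control CTCF summit. From the secretory phenotype list, the promoter of GDF15, a stress-induced cytokine, was met. It had control SMC1 rank 6.41, no ICM peak and CTCF ranks of 8.59, 85.1 and 47.0. Its control CTCF peak overlapped neither the senescent CTCF peak nor the control SMC1 peak, and a wide ICM CTCF peak joined them, so these ranks belong to different sites. It was the 1 control-only locus whose strongest control and senescent CTCF peaks did not touch.

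Of 33 extracellular matrix genes, LOX and ELN (elastin, control SMC1 rank 73.5, ICM 58.6) were met, and of 31 actin and mechanosensing genes DIAPH1, a formin (71.2, with an ICM peak), and PXN, the focal adhesion adaptor paxillin (39.0, no ICM peak). The growth factor receptors had 3 of 23, which were NRP2 (62.4 and 13.5), FGFR3 (39.2, no ICM peak) and IGF1R (9.66, no ICM peak). The AP-1 and immediate early genes had 2 of 19, JUND and FOSB, the latter through a locus in the neighbouring gene RTN2 with CTCF ranks of 94.6, 87.7 and 94.1 and control SMC1 rank 47.3. Of 39 HOX genes, HOXA3, HOXA5, HOXA6 and HOXA7 were met by a single locus at the HOXA5 promoter (chr7:27141474-27146313), with SMC1 ranks of 70.3 and 44.1 and CTCF ranks of 56.1, 82.6 and 34.7. Of 30 cell cycle and replication genes MCM7, a helicase subunit, was met by a locus at the ZNF3 promoter (65.9 and 69.5), and of 26 lung mesenchyme transcription factors SNAI1 (25.7 and 44.4). In each list more genes met a shared than a control-only locus. This held over all coding genes as well (16.3% against 3.26%), with 2601 shared and 506 control-only loci, and is no trait of the lists.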

How the data were processed

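Per the study's methods, lightly fixed cells were taken through CUT&Tag with E. coli DNA for calibration, and reads were placed on hg38. The submitters' processing notes name Bowtie2 2.3.4.1, Picard 2.20.7, deepTools and SEACR 1.3 and the build GRCh38. The authors called peaks in each library and kept the top 1% of regions, and the deposited lists give each peak's total and highest signal, in whole numbers. The paper also filtered its CTCF peaks for a consensus motif, and reports slightly fewer of them than each deposited CTCF list holds. The study states a minimum of reads for its samples but the depth of each library is not given in the sources used here, so it enters no interval, and intervals (exact Clopper-Pearson, 95%) cover counting over loci only.

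Peaks on chromosomes 1 to 22 and X were joined, classed and ranked with Python 3.11.15, pandas 2.3.3 and SciPy 1.17.1, and the classing was tested on simulated intervals. Conditions were not tested, with 1 library per group. Gene positions came from RefSeq (GRCh38.p14), with 5′ ends for 19630 of 19974 coding genes. Strand came from the promoter table or, by symbol and chromosome, from GENCODE where it gave a single strand. The members and lists were chosen with earlier results of these data known. Loci named in the text follow a rule: highest control SMC1 rank, highest mean CTCF rank, with and without ICM SMC1, edges of the rule, the densest 1 Mb window and listed genes. Sequences shown with a motif were chosen after their values were seen. Alternative overlap, list length, rank and promoter settings were tried. One item of the secretory phenotype list is not reported here, and no count is given for that list.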

Additional observations from a re-analysis of the deposited data

How the results depend on the processing

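The control-only share of 16.3% was 30.5% with windows of 100 bp around summits in place of whole peaks, 14.2% and 14.3% with SMC1 lists of equal length by total and by highest signal, 14.4% with no senescent SMC1 peak allowed within 5 kb, 14.1% with CTCF lists of equal length and 12.3% with lists of both antibodies of equal length. The number of control-only loci was 217 above the median signal of every list and 282 with both antibodies of equal length (285 senescent-only loci), and 71 and 282 of the 506 remained. Summit windows kept 353 of the 506, and CTCF lists of equal length kept 341. The share with an ICM peak was 62.1% and 55.7% with SMC1 lists of equal length by total and highest signal, and 62.1% with both antibodies of equal length. The control CTCF rank of control-only minus shared loci (-17.5 points) was -7.40 with summit windows, -6.69 above the median signal of every list, -13.1 with CTCF lists of equal length and -7.64 by highest signal. The same difference for the rank shift between senescent and control cells (6.05 points in whole lists) was 0.248 among stable loci alone, 1.90 there by highest signal, 0.812 above the median signal of every list and -0.110 with summit windows. The promoter share of control-only minus shared loci (-1.50 points) reversed to 2.42 with summit windows, 1.02 with the 5 kb gap, 0.560 with CTCF lists of equal length and 0.811 with both of equal length, and was -7.36 with promoters of 5 kb. The number of senescent-only loci (274) was 423 with SMC1 lists of equal length by highest signal (409 control-only loci) and 163 above the median signal of every list. The causes of these movements were not tested. Equal lengths of both antibodies and ranks among stable loci were chosen after seeing the data. Of 24 named control-only loci, 13 kept their class with summit windows, 16 with CTCF lists of equal length and 5 above the median signal of every list. No paired analysis was possible because each group held 1 library.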
